A study of Mus musculus with 7 samples.

Results

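The genes described here were 46 pan-endothelial and angiogenic endothelial genes, read by symbol from a table of 53460 mouse genes. The list held 47 symbols, and the symbol Roxb matched no gene of the table and was not analysed here. The genes were chosen for their role in vessels, with earlier results of these data already known. They comprised 14 junction and surface proteins, 5 genes of the angiopoietin and Tie system, 7 transcription factors, 7 capillary genes, 3 venous genes, 3 lymphatic genes, 1 tip cell gene, 2 genes of coagulation control and 4 leukocyte adhesion molecules.

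RNA sequencing was performed on cardiac tissues of 4 mice of the TAC + EMPA group and 3 mice of the TAC group, as the labels of 7 libraries give them, although the protocol in the labels speaks of 4 libraries. TAC is transverse aortic constriction, which narrows the aortic arch and puts the left ventricle under pressure overload, and EMPA is empagliflozin, an inhibitor of the sodium glucose transporter SGLT2. The study asked how EMPA acts on the heart in this model. C57BL/6Ncr mice (male C57BL/6NCrSlc mice in the study's methods) labelled 14 weeks old, all of them operated by TAC at 12 weeks per the labels (an earlier age in the study's methods), received chow with EMPA for 5 days from 2 weeks after TAC in the TAC + EMPA group, and chow without EMPA in the TAC group. Hearts without TAC were not analysed here, so both groups carried the pressure overload.

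Endothelial cells line every vessel of the heart and, by number, belong to its most common cells. VE-cadherin, encoded by Cdh5, and PECAM-1, encoded by Pecam1, join neighbouring cells, and transcription factors of the ETS and SOX families keep the genes of this lineage active. The receptor Tie2, encoded by Tek, is held active by angiopoietin-1 and can be blocked by angiopoietin-2, and this balance sets how stable or how ready to sprout a vessel is. Capillary cells of the heart take up and pass on fatty acids, whereas venous, lymphatic and tip cells each carry further genes of their own.

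Levels are given as FPKM, the number of sequenced fragments of a gene scaled for the length of its transcript and the size of the library, and differences as log2 fold changes of FPKM + 1, TAC + EMPA minus TAC, which understate the change of low genes. A gene was tested where its mean over the 7 libraries was at least 1 FPKM, and a gene passed the test at a limma adjusted p under 0.05. The libraries detected 20554 to 21955 genes in the TAC + EMPA group and 20250 to 22956 genes in the TAC group. Over the tested genes, TAC replicate 3 correlated with the 4 TAC + EMPA libraries at r = 0.960 to 0.971 and with the other TAC libraries at r = 0.928 and 0.922, a description over genes that share their libraries. On the log2 scale, 76.9% of the 12391 tested genes, and 37 of the 41 endothelial genes tested, had TAC replicate 3 closer to the average of the TAC + EMPA libraries than to that of the remaining TAC libraries. This library thus went against its label for most of these genes, and the cause was not tested. Its label was kept, and the main counts and many, though not all, of the leading genes are given with and without it.

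Most endothelial transcripts were lower in the TAC + EMPA hearts than in TAC replicates 1 and 2, and close to their level in TAC replicate 3. The summed level of the 46 genes was 2449, 2476, 2217 and 2446 FPKM in the TAC + EMPA libraries, against 4809, 5895 and 2514 FPKM in the TAC libraries. Fabp4 was the largest single part of this sum in every library. Of the 41 genes tested, 37 had a mean log2 level below that of the TAC group, where 46.8% of all tested genes did, and 4 lay above it (Angpt1, Prox1, Plvap and Vcam1). The median log2 fold change was -0.61 for the 41 genes and 0.03 for all tested genes. In bulk cardiac tissue, fewer endothelial cells, less of these RNAs per cell and more RNA from other cells cannot be told apart. Each FPKM value is scaled to the size of its library.

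None of the 41 genes passed the adjusted threshold in either direction, as for all 12391 genes (0% called higher and 0% called lower by limma). At an unadjusted limma p under 0.05, 27 of the 41 were lower, beside 14.7% of all tested genes, and 0 were higher, beside 19.0%. The 2 groups were fully separated in 17 of the 41, all lower in the TAC + EMPA group, beside 10.7% of all tested genes, and for 0 in the other direction, beside 11.5%. With TAC replicate 3 left out, limma called 35 of the 41 lower, beside 23.6% of all tested genes, and 2 higher (Angpt1 and Prox1), beside 29.8%, and the median fold change was -0.91. In that comparison 36 of the 41 were fully separated and lower, beside 30.4% of all tested genes, and 2 were separated and higher, beside 36.5%. The calls rested on this library: with any other library left out, 0 of the 41 passed in either direction. Against each TAC library alone, the median log2 fold change of the 41 genes was -0.80 for replicate 1, -1.06 for replicate 2 and -0.08 for replicate 3. Tal1 passed the filter only through its TAC level, and over the 40 genes whose mean reached 1 FPKM in both groups the counts were 26 lower at an unadjusted p, 16 fully separated and lower, and 34 called lower without TAC replicate 3.

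**Figure D1:**
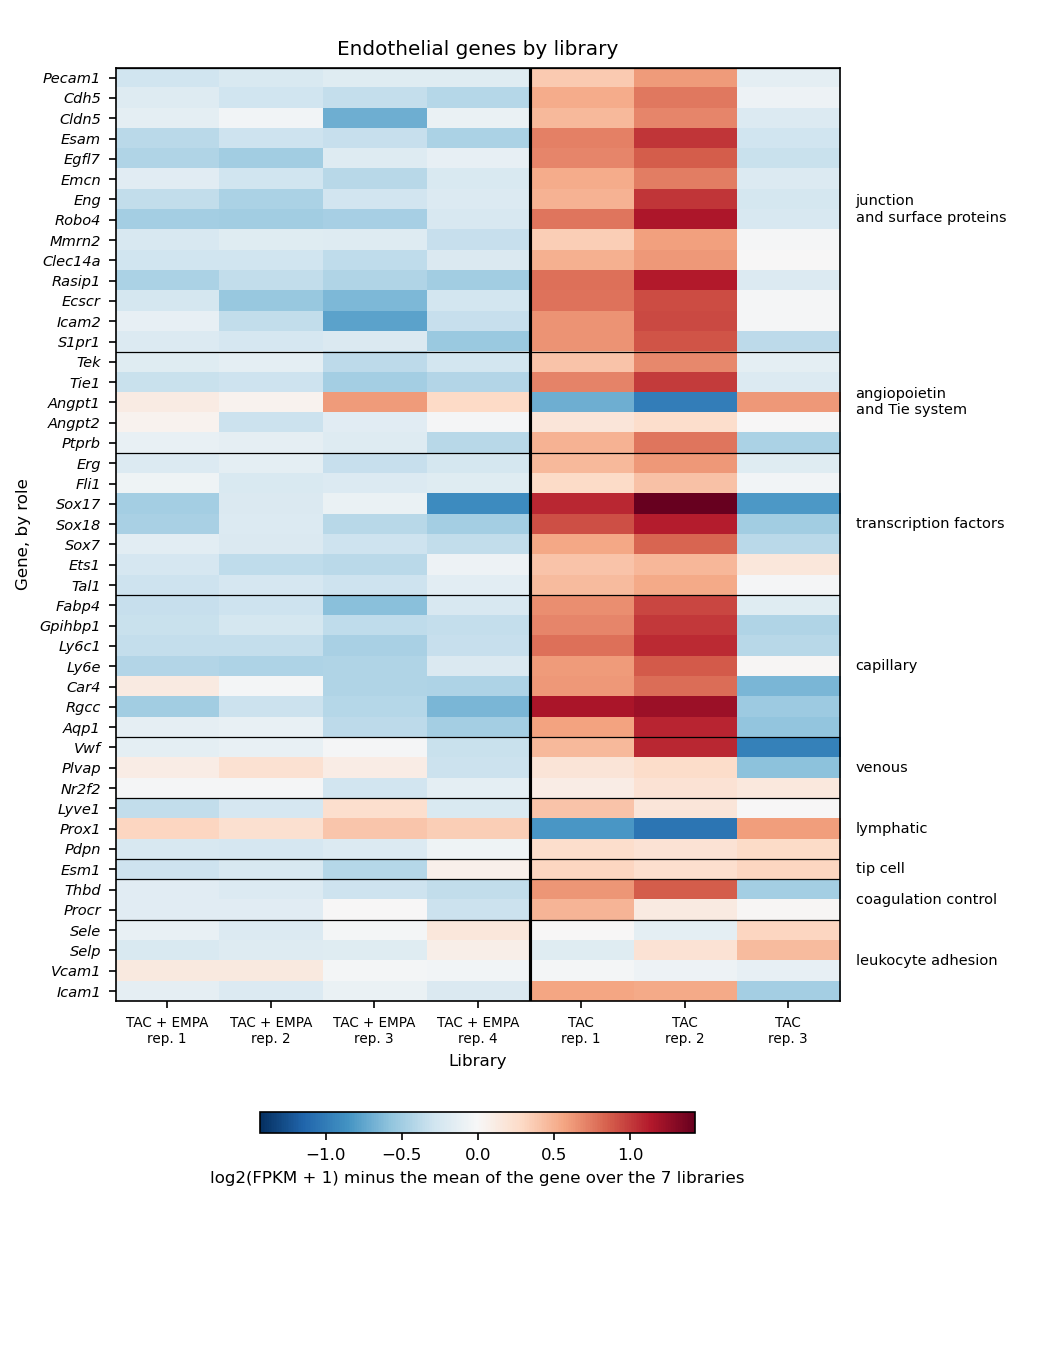
Level of the 46 endothelial genes (rows, by role) in each library (columns, TAC + EMPA left of TAC), as log2(FPKM + 1) minus the mean of the gene over the 7 libraries, with red above and blue below that mean. Most rows are red in TAC replicates 1 and 2 and blue or pale in TAC replicate 3 and the 4 TAC + EMPA libraries, while Angpt1 and Prox1 show the opposite colours.

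All 14 junction and surface genes were tested, and all 14 had a lower mean log2 level in the TAC + EMPA group. The median log2 fold change was -0.72, with a range of -1.01 to -0.49 over the list. Of the 14, 13 were lower at an unadjusted limma p under 0.05 (14.7% of all tested genes), 9 had groups that did not overlap (10.7%), and 14 passed the adjusted threshold without TAC replicate 3 (23.6%). Against TAC replicate 3 alone the median was -0.14.

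Pecam1 (chr11:106654217-106750628, GRCm38), the adhesion molecule also known as CD31, had 53.1, 55.4, 57.3 and 57.4 FPKM in TAC + EMPA replicates 1 to 4, against 84.2, 99.3 and 58.8 FPKM in TAC replicates 1 to 3. Cdh5 (chr8:104101625-104144511), the cadherin of the endothelial junction, had 60.3, 56.0, 53.6 and 51.2 FPKM in TAC + EMPA replicates 1 to 4, against 99.3, 116 and 65.1 FPKM in TAC replicates 1 to 3. Both defining markers were thus well above the filter in every library, and every TAC + EMPA library lay below every TAC library for both genes, with TAC replicate 3 the lowest of its group. Pecam1 averaged 55.8 ± 1.99 FPKM in the TAC + EMPA group, against 80.8 ± 20.4 FPKM in the TAC group (SD, n = 4 and 3; log2 fold change -0.49, SE 0.17, limma adjusted p = 0.118), and Cdh5 averaged 55.3 ± 3.86 FPKM in the TAC + EMPA group, against 93.5 ± 26.0 FPKM in the TAC group (log2 fold change -0.71, SE 0.19, limma adjusted p = 0.115). Without TAC replicate 3 the log2 fold change was -0.70 (limma adjusted p = 0.000928) for Pecam1 and -0.95 (limma adjusted p = 0.000554) for Cdh5.

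Clec14a (chr12:58264720-58269290), a lectin-like protein of the endothelial surface, had the smallest p of the junction list, with 4.76, 4.77, 4.495 and 5.11 FPKM in the TAC + EMPA libraries, against 9.04, 9.85 and 6.05 FPKM in the TAC libraries. The groups did not overlap (log2 fold change -0.66, SE 0.15, limma adjusted p = 0.115). Ecscr, a surface protein that takes part in endothelial migration, had 11.8, 9.47, 8.79 and 11.8 FPKM in the TAC + EMPA libraries, against 25.2, 28.1 and 14.2 FPKM in the TAC libraries. Here TAC replicate 3 lay between the other TAC libraries and the highest TAC + EMPA library (log2 fold change -0.99, SE 0.23, limma adjusted p = 0.115), and 3.54% of the exon bases of the gene are shared with a gene on the other strand. Mmrn2, a matrix protein that binds Clec14a, had 12.9, 13.4, 13.3 and 11.9 FPKM in the TAC + EMPA libraries, against 19.8, 23.4 and 15.1 FPKM in the TAC libraries, again without overlap (log2 fold change -0.54, SE 0.14, limma adjusted p = 0.115). Without TAC replicate 3 the log2 fold changes were -0.85 (limma adjusted p = 0.000406) for Clec14a, -1.28 (limma adjusted p = 0.000691) for Ecscr and -0.70 (limma adjusted p = 0.00122) for Mmrn2.

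The largest fold change of the junction list belonged to Rasip1, a partner of Rap and Ras proteins that is needed for vessel lumens in mice, at -1.01 (SE 0.29, limma adjusted p = 0.115). However, its overlaps with other annotated genes, summed gene by gene, come to 42.9% of its exon bases, so its level is uncertain. The roundabout receptor Robo4 had 15.2, 15.0, 15.3 and 18.4 FPKM in the TAC + EMPA libraries, against 37.4, 49.6 and 18.4 FPKM in the TAC libraries. The highest TAC + EMPA library and TAC replicate 3 therefore differed by less than 0.1 FPKM (log2 fold change -0.99, SE 0.30, limma adjusted p = 0.115). The other 7 genes of the list were the claudin Cldn5, the adhesion molecules Esam and Icam2, the sialomucin Emcn, the TGF-beta co-receptor Eng, the secreted Egfl7 and S1pr1, a receptor for a sphingosine phosphate. Their log2 fold changes ran from -0.91 (Icam2) to -0.57 (Cldn5), and Cldn5 was the one with an unadjusted p above 0.05. The overlaps of Egfl7 with other genes, among them Mir126a, come to 12.8% of its exon bases when summed in the same way.

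Factors of the ETS and SOX families, described next, act on endothelial promoters, and their part in junction gene levels was not tested. The promoters of 4 junction genes are shown as a description of sequence. They are the 4 genes of smallest p among the junction and transcription factor lists that have a single promoter window, and were chosen after their values were seen. Each window comes from RefSeq (GRCm38.p6) and runs 5′ to 3′ from 250 bases before the RefSeq start of the gene to 50 bases after it. The GENCODE starts of these genes differ from the RefSeq starts, with that of Robo4 at 37401897, inside its window. The windows are chr12:58269209-58269508 on the minus strand for Clec14a, and chr7:45627287-45627586 for Rasip1, chr9:37401722-37402021 for Robo4 and chr3:137340828-137341127 for Emcn, all on the plus strand. Capitals mark the ETS motif, searched as CAGGAAG on both strands.
Clec14a: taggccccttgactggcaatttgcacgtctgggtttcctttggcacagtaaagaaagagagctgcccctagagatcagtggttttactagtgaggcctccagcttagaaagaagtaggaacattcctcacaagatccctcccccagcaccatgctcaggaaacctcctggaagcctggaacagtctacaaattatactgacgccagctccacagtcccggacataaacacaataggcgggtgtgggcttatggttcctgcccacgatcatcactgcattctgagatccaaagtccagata
Rasip1: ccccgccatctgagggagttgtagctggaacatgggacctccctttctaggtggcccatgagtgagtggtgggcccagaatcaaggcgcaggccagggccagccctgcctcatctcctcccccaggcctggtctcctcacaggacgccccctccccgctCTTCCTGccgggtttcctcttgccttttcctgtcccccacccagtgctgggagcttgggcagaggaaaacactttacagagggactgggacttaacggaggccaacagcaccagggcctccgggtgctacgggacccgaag
Robo4: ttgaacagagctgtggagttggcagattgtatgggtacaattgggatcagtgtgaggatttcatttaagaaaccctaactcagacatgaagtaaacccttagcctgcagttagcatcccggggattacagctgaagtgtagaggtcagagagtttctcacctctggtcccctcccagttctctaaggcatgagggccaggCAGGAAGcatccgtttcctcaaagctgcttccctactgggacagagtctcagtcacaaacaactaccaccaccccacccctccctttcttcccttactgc
Emcn: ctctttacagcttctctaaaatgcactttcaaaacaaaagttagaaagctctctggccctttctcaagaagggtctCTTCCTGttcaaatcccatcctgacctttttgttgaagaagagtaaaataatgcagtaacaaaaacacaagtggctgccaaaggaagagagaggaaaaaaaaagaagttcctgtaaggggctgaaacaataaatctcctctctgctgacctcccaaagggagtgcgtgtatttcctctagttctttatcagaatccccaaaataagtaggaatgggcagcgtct

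The ETS motif began 50 bases before the RefSeq start of Robo4 on its own strand. On the opposite strand, as its reverse complement, it began 91 bases before the RefSeq start of Rasip1 and 174 before that of Emcn. No ETS motif was found in the Clec14a window, and neither the SOX motif ACAATG nor the FOX motif GTAAACA was found in any of the 4. Windows were given for 23 of the 46 genes, 30 windows in all. The ETS motif was present in 7 of the 30 windows, beside 13.3% of all 32851 windows of this length, and these belonged to Sele, Egfl7, Emcn, Rasip1, Robo4 and Erg. The SOX motif was present in 1 of the 30 (Erg), beside 12.6% of all windows, and the FOX motif in 1 of the 30 (Pdpn), beside 3.65%. Such matches describe letters in a window and not the binding of a factor.

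In the angiopoietin and Tie system, the receptors lay below the TAC group and the ligand Angpt1 above it. Tie1, the orphan receptor that pairs with Tie2, had 25.3, 25.8, 22.5 and 23.6 FPKM in the TAC + EMPA libraries, against 52.8, 64.9 and 27.6 FPKM in the TAC libraries. The groups did not overlap, although the lowest TAC library and the highest TAC + EMPA library were close (log2 fold change -0.88, SE 0.26, limma adjusted p = 0.115). Tek, which encodes Tie2, had 12.5, 12.8, 10.8 and 11.7 FPKM in the TAC + EMPA libraries, against 19.3, 23.6 and 12.8 FPKM in the TAC libraries, so that TAC replicate 3 and TAC + EMPA replicate 2 coincided to 3 digits (log2 fold change -0.56, SE 0.19, limma adjusted p = 0.117). Ptprb, the phosphatase that acts on Tie2, had 21.0, 20.6, 19.7 and 16.9 FPKM in the TAC + EMPA libraries, against 32.2, 39.0 and 16.2 FPKM in the TAC libraries, and TAC replicate 3 was the lowest of the 7 libraries (log2 fold change -0.47, SE 0.27, limma adjusted p = 0.242). Leaving out TAC replicate 3, the log2 fold changes were -1.24 (limma adjusted p = 0.000341) for Tie1, -0.79 (limma adjusted p = 0.00153) for Tek and -0.83 (limma adjusted p = 0.00171) for Ptprb.

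Angpt1 (chr15:42424723-42676977), the ligand that activates Tie2 and that mural cells and cardiomyocytes produce, had 3.42, 3.23, 5.19 and 3.97 FPKM in TAC + EMPA replicates 1 to 4, against 1.52, 1.06 and 5.27 FPKM in TAC replicates 1 to 3. The TAC + EMPA libraries lay above TAC replicates 1 and 2, whereas TAC replicate 3 was the highest of the 7 (log2 fold change 0.62, SE 0.37, limma adjusted p = 0.256). The log2 fold change of Angpt1 without that library was 1.10 (limma adjusted p = 0.00302). The exons of Angpt1 share 14.2% of their bases with an antisense gene. Angpt2, which endothelial cells release and which can oppose Angpt1, did not reach the filter, with 0.825, 0.423, 0.574 and 0.730 FPKM in the TAC + EMPA libraries, against 0.972, 1.09 and 0.768 FPKM in the TAC libraries, and its groups overlapped.

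The transcription factors of the lineage lay below the TAC group in 7 of 7 cases. Their median log2 fold change was -0.58, with 5 of 7 lower at an unadjusted limma p under 0.05 (14.7% of all tested genes), 3 of 7 without overlap (10.7%), and 7 of 7 past the adjusted threshold without TAC replicate 3 (23.6%). Leaving out Tal1, these counts were 4, 2 and 6 of 6, with a median of -0.60. Against TAC replicate 3 alone the median was -0.05.

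Ets1 (chr9:32636221-32757820), an ETS factor of vessels and lymphocytes, had 9.58, 8.77, 8.58 and 10.9 FPKM in TAC + EMPA replicates 1 to 4, against 15.6, 16.4 and 12.996 FPKM in TAC replicates 1 to 3. Every TAC library lay above every TAC + EMPA library, TAC replicate 3 included (log2 fold change -0.61, SE 0.12, limma adjusted p = 0.115), and without that library the log2 fold change was -0.71 (limma adjusted p = 0.0021). Tal1, a helix-loop-helix factor of blood and endothelial origin, had 0.730, 0.785, 0.730 and 0.906 FPKM in the TAC + EMPA libraries, against 1.90, 2.07 and 1.09 FPKM in the TAC libraries. It passed the filter through the TAC libraries alone, since its TAC + EMPA values were all under 1 FPKM, so its level is given as a description with no test. Fli1, a further ETS factor, had 5.97, 5.24, 5.34 and 5.47 FPKM in the TAC + EMPA libraries, against 7.82, 8.69 and 6.07 FPKM in the TAC libraries, without overlap (log2 fold change -0.38, SE 0.12, limma adjusted p = 0.117).

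Erg, the ETS factor most tied to endothelial identity, had a log2 fold change of -0.53 (SE 0.19, limma adjusted p = 0.119). In the 3 SOXF factors, which act in arterial and lymphatic development, TAC replicate 3 lay within or below the TAC + EMPA range. Sox17 had 11.4, 13.9, 15.2 and 8.27 FPKM in the TAC + EMPA libraries, against 35.5, 45.5 and 8.79 FPKM in the TAC libraries, so that TAC replicates 1 and 2 stood apart and TAC replicate 3 lay within the TAC + EMPA range (log2 fold change -0.98, SE 0.52, limma adjusted p = 0.207). Single libraries moved Sox17 strongly: its log2 fold change was -1.68 (limma adjusted p = 0.00179) without TAC replicate 3 and -0.55 without TAC replicate 2. Sox18 and Sox7 had log2 fold changes of -0.89 and -0.58 (limma adjusted p = 0.138 and 0.164), and TAC replicate 3 was the lowest of the 7 libraries for both. For Sox17, 16.8% of the exon bases are shared with an antisense gene.

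**Figure D2:**
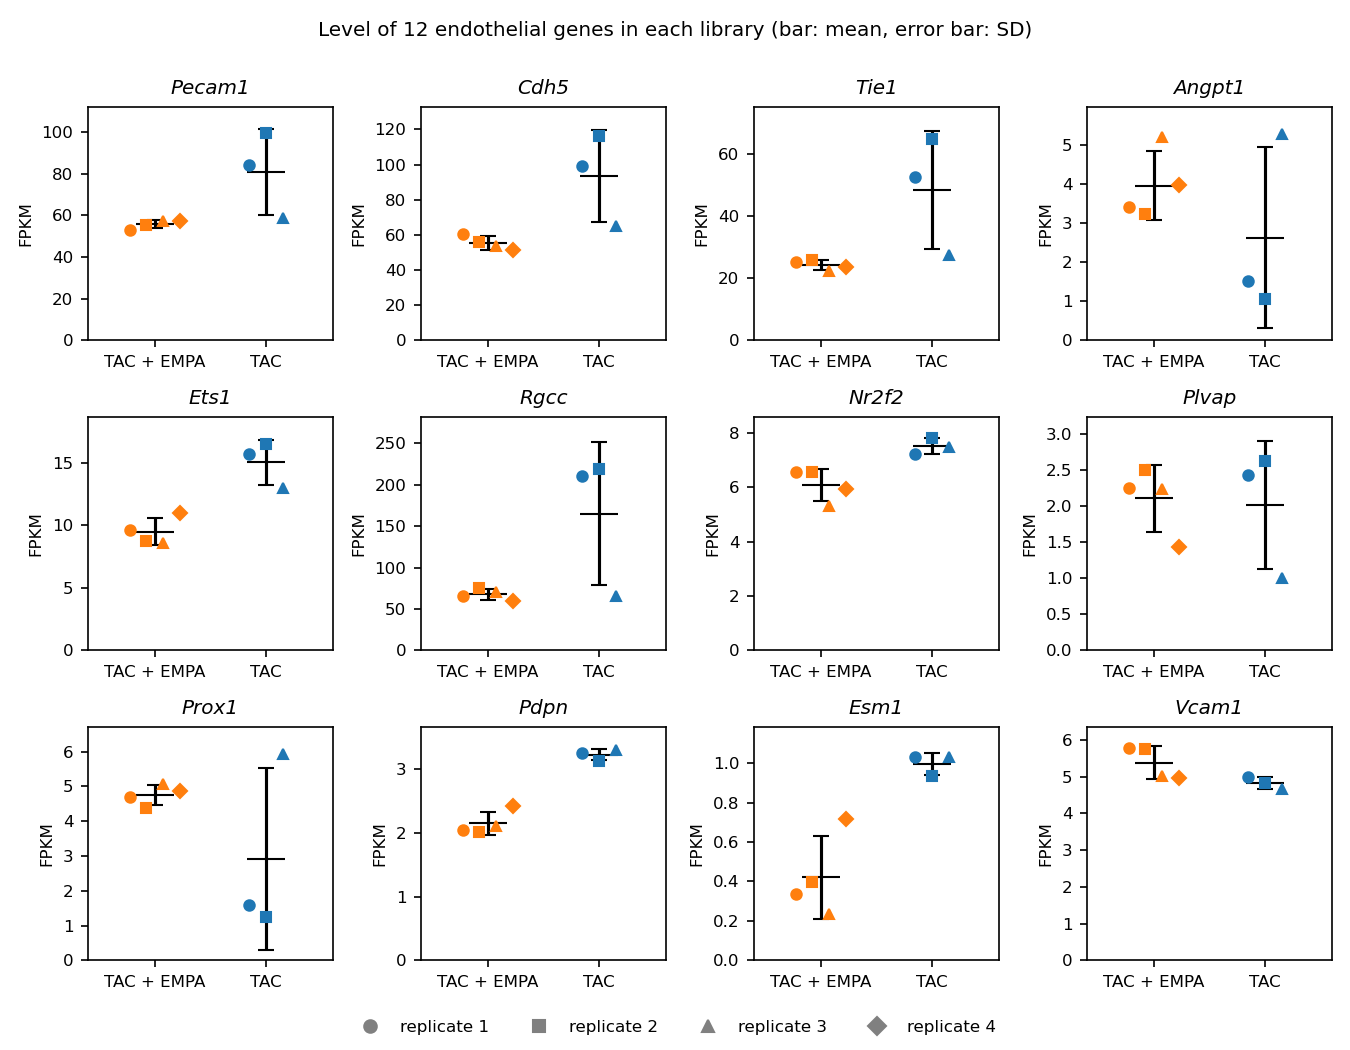
FPKM of 12 endothelial genes in each library, TAC + EMPA left of TAC on each horizontal axis, with 1 marker shape per replicate number, a horizontal bar at the mean and error bars of 1 SD (n = 4 and 3). TAC replicate 3 (blue triangle) lies near the TAC + EMPA values for Pecam1, Tie1, Rgcc, Angpt1 and Prox1, and with the other TAC libraries for Nr2f2, Pdpn and Esm1.

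Capillary genes had the lowest median log2 fold change of the role lists with 3 or more tested genes, -0.85, and they also carried most of the endothelial signal. Their summed level was 1570 to 1835 FPKM in the TAC + EMPA libraries, against 1840 to 4446 FPKM in the TAC libraries. All 7 had lower mean log2 levels in the TAC + EMPA group, 5 of 7 were lower at an unadjusted limma p under 0.05 (14.7% of all tested genes), 2 of 7 had groups that did not overlap (10.7%), and 7 of 7 passed the adjusted threshold without TAC replicate 3 (23.6%). The order of the lists depended on transcript length: after a correction for length the median was -0.64 for the capillary genes, whose median transcript had 1652 bases, and -0.75 for the junction genes, with 3312 bases. Against TAC replicate 3 alone the capillary median was 0.05.

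Fabp4, the fatty acid binding protein of capillary cells and of fat, had 886, 907, 733 and 946 FPKM in TAC + EMPA replicates 1 to 4, against 1769, 2158 and 989 FPKM in TAC replicates 1 to 3. It was the most abundant of the 46 genes, with a mean of 1198 FPKM over the 7 libraries, against 329 FPKM for Aqp1, the next. Its groups did not overlap (log2 fold change -0.85, SE 0.26, limma adjusted p = 0.115). The adipocyte markers Adipoq, Plin1, Cidec and Lep summed to 0.0794 to 0.358 FPKM in the TAC + EMPA libraries, against 0.0264 to 0.1198 FPKM in the TAC libraries, close to 0 beside Fabp4. Ly6e, a surface protein anchored by a lipid tail, had 137, 134, 136 and 158 FPKM in the TAC + EMPA libraries, against 280.0, 337 and 185 FPKM in the TAC libraries, again without overlap (log2 fold change -0.88, SE 0.20, limma adjusted p = 0.115). Leaving out TAC replicate 3, the log2 fold changes were -1.18 (limma adjusted p = 0.000736) for Fabp4 and -1.12 (limma adjusted p = 0.000461) for Ly6e.

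Rgcc, a regulator of the cell cycle that marks capillary cells, had the lowest fold change of the 41 genes. Its values were 66.0, 75.3, 70.2 and 59.1 FPKM in the TAC + EMPA libraries, against 211, 219 and 65.1 FPKM in the TAC libraries, so that TAC replicates 1 and 2 stood far above the other 5 libraries (log2 fold change -1.09, SE 0.41, limma adjusted p = 0.123). For Rgcc the log2 fold change without TAC replicate 3 was -1.66 (limma adjusted p = 0.000196). Gpihbp1, which carries lipoprotein lipase to the capillary lumen, Ly6c1, the water channel Aqp1 and the carbonic anhydrase Car4 had log2 fold changes of -0.74, -0.85, -0.64 and -0.45 (limma adjusted p = 0.144, 0.124, 0.230 and 0.372). In all 4, TAC replicate 3 lay within or below the TAC + EMPA range. Ly6c1 has a near-identical paralog in the Ly6 family, so its level is uncertain.

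Venous genes had a median log2 fold change of -0.27 over 3 genes, with 2 below the TAC group and Plvap above it. Nr2f2 (chr7:70351944-70366735), the nuclear receptor COUP-TFII that sets venous identity, had 6.55, 6.56, 5.32 and 5.95 FPKM in TAC + EMPA replicates 1 to 4, against 7.23, 7.82 and 7.49 FPKM in TAC replicates 1 to 3. All 3 TAC libraries lay within 0.6 FPKM of each other and above every TAC + EMPA library (log2 fold change -0.27, SE 0.10, limma adjusted p = 0.119). For Nr2f2 the log2 fold change without TAC replicate 3 was -0.27 (limma adjusted p = 0.058), the same size with fewer libraries. An antisense gene shares 7.5% of the exon bases of Nr2f2.

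Vwf, the von Willebrand factor of veins and platelets, had 13.3, 13.5, 14.5 and 11.6 FPKM in the TAC + EMPA libraries, against 20.6, 32.1 and 7.06 FPKM in the TAC libraries. TAC replicate 3 was the lowest of the 7 libraries and TAC replicate 2 the highest (log2 fold change -0.34, SE 0.43, limma adjusted p = 0.579). The direction for Vwf turned with 1 library: the log2 fold change was 0.11 without TAC replicate 2 and -0.91 (limma adjusted p = 0.00615) without TAC replicate 3. Plvap, a component of the diaphragms of fenestrae and caveolae, had 2.24, 2.50, 2.24 and 1.43 FPKM in the TAC + EMPA libraries, against 2.42, 2.61 and 0.995 FPKM in the TAC libraries. Its mean log2 level was above that of TAC through the low value of TAC replicate 3 (log2 fold change 0.08, SE 0.24, limma adjusted p = 0.821), and the log2 fold change turned to -0.19 (limma adjusted p = 0.341) without that library.

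The 3 lymphatic genes did not share a direction. Pdpn (chr4:143267431-143299564), which encodes the mucin podoplanin of lymphatic and stromal cells, had 2.05, 2.02, 2.12 and 2.42 FPKM in TAC + EMPA replicates 1 to 4, against 3.26, 3.13 and 3.31 FPKM in TAC replicates 1 to 3. The 3 TAC libraries agreed within 0.2 FPKM and lay above every TAC + EMPA library (log2 fold change -0.43, SE 0.09, limma adjusted p = 0.115). For Pdpn the log2 fold change without TAC replicate 3 was -0.41 (limma adjusted p = 0.00919). Lyve1, the hyaluronan receptor of lymphatic cells and tissue macrophages, had 7.05, 7.65, 11.1 and 7.80 FPKM in the TAC + EMPA libraries, against 12.6, 10.52 and 9.30 FPKM in the TAC libraries, and its groups overlapped (log2 fold change -0.34, SE 0.17, limma adjusted p = 0.185).

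Prox1 (chr1:190118035-190170714), the homeobox factor of lymphatic fate, which cardiomyocytes also express, had 4.69, 4.37, 5.06 and 4.86 FPKM in TAC + EMPA replicates 1 to 4, against 1.59, 1.23 and 5.93 FPKM in TAC replicates 1 to 3. The TAC + EMPA libraries lay above TAC replicates 1 and 2, and TAC replicate 3 was the highest of the 7 (log2 fold change 0.75, SE 0.36, limma adjusted p = 0.183). With that library left out, Prox1 had a log2 fold change of 1.26 (limma adjusted p = 0.000296). Of the 8 cardiomyocyte markers, Ryr2, Atp2a2, Pln and Actc1 were also lowest in TAC replicates 1 and 2, whereas Tnni3 and Myh6 were highest there. Ryr2 had 104, 102, 117 and 112 FPKM in the TAC + EMPA libraries, against 25.4, 23.7 and 82.2 FPKM in the TAC libraries. Of these 8, 5 lay above the TAC group and 3 below it (46.8% of all tested genes lay below). Their summed level was 56599 to 64674 FPKM in the TAC + EMPA libraries, against 59914 to 71612 FPKM in the TAC libraries. Myh6 is listed at 0 in TAC + EMPA replicate 1, which has the lowest sum, and at 4498 to 5098 FPKM in the other TAC + EMPA libraries. Myh6, Actc1 and Atp2a2 carry the Cuffdiff status HIDATA (too many fragments at the locus), so their levels are uncertain. The part of cardiomyocytes in the levels of Prox1 and Angpt1 was not tested.

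**Figure D3:**
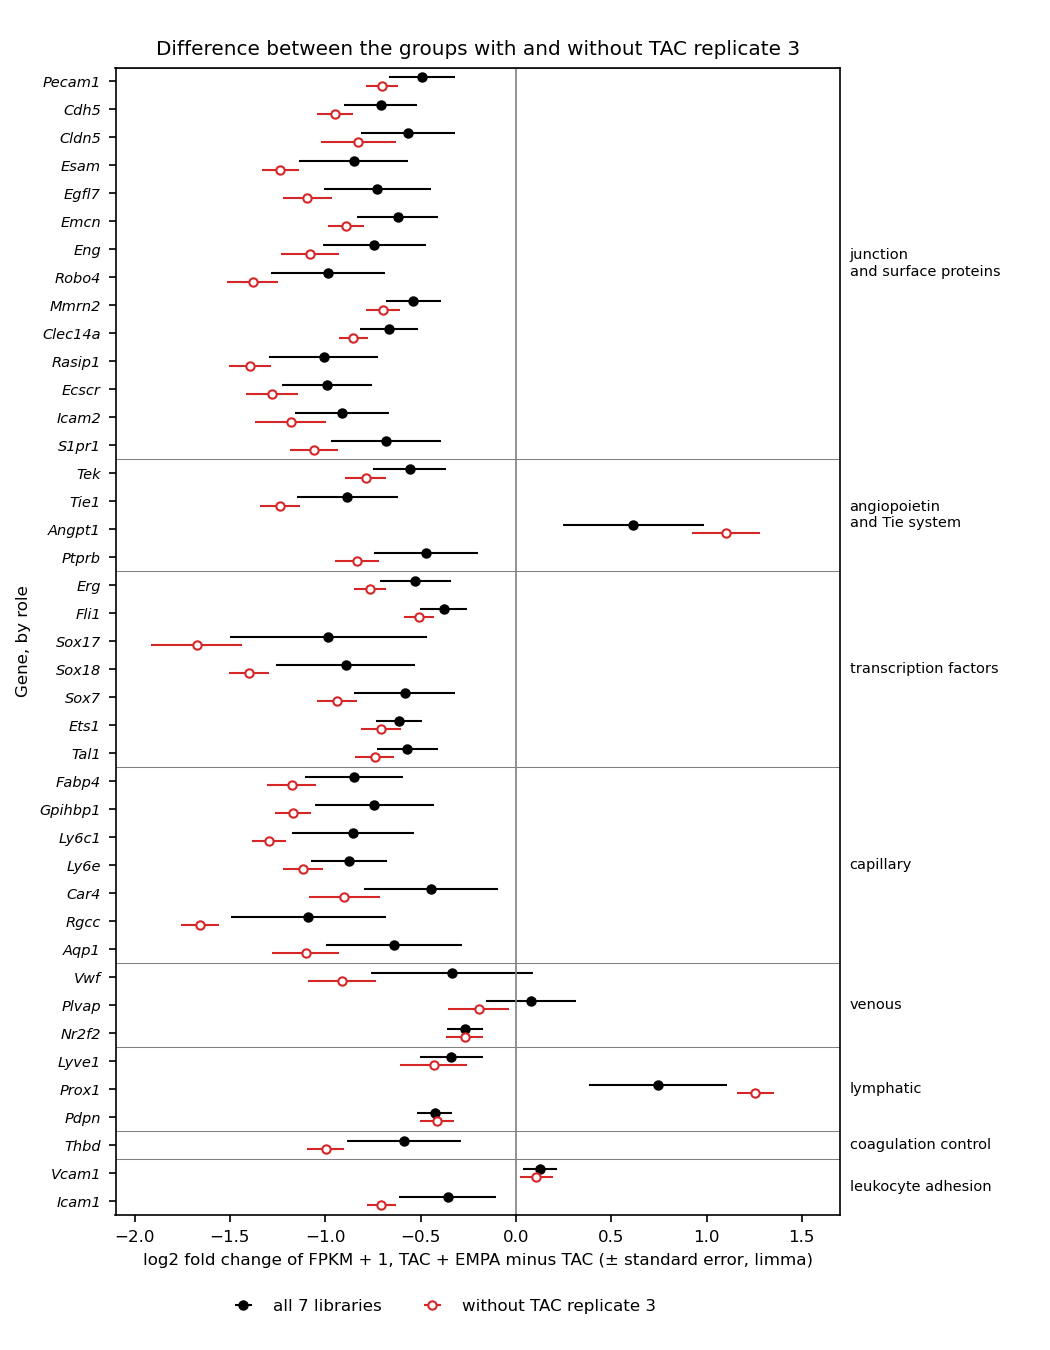
Log2 fold change of FPKM + 1, TAC + EMPA minus TAC, with its standard error from limma (horizontal axis) for the 41 tested endothelial genes (vertical axis, by role), from all 7 libraries (filled) and without TAC replicate 3 (open). The open points lie farther from 0 than the filled points for most genes, whereas for Ets1, Nr2f2, Pdpn and Vcam1 the pairs lie close together or coincide.

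Of the tip cell genes, Esm1, which encodes endocan and marks the leading cell of a sprout, had 0.335, 0.396, 0.234 and 0.717 FPKM in TAC + EMPA replicates 1 to 4, against 1.03, 0.933 and 1.03 FPKM in TAC replicates 1 to 3. Its mean was under 1 FPKM, so it was not among the tested genes, and with no filter its log2 fold change was -0.50 (unadjusted p = 0.00448, limma adjusted p = 0.220). Every TAC library, replicate 3 included, lay above every TAC + EMPA library. Further tip cell genes outside the list of 46 had lower mean log2 levels in 6 of 6 cases (46.8% of all tested genes), with 4 of 6 lower at an unadjusted limma p under 0.05 (14.7%) and 4 of 6 without overlap (10.7%), and a median log2 fold change of -0.51. Among these, the basement membrane protein Nid2 had a log2 fold change of -0.62, the chemokine receptor Cxcr4 -0.59 and the laminin chain Lamb1 -0.42 (limma adjusted p = 0.115 for each). Against TAC replicate 3 alone their median was -0.36.

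Thbd, the thrombomodulin that turns thrombin against clotting, had 19.2, 18.7, 17.4 and 16.7 FPKM in the TAC + EMPA libraries, against 33.9, 40.1 and 15.1 FPKM in the TAC libraries. TAC replicate 3 was the lowest of the 7 libraries (log2 fold change -0.59, SE 0.30, limma adjusted p = 0.198), and the log2 fold change without it was -0.998 (limma adjusted p = 0.000486). Procr, the receptor of protein C, did not reach the filter, with 0.660, 0.651, 0.865 and 0.50 FPKM in the TAC + EMPA libraries, against 1.59, 1.02 and 0.867 FPKM in the TAC libraries. Its groups did not overlap, although TAC replicate 3 and TAC + EMPA replicate 3 differed by less than 0.01 FPKM.

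The leukocyte adhesion molecules tested shared no direction. Vcam1, which binds leukocyte integrins on activated endothelium, had 5.77, 5.76, 5.02 and 4.98 FPKM in TAC + EMPA replicates 1 to 4, against 5.01, 4.83 and 4.66 FPKM in TAC replicates 1 to 3. Its groups overlapped (log2 fold change 0.13, SE 0.09, limma adjusted p = 0.318), and the difference without TAC replicate 3 was 0.11 (limma adjusted p = 0.337). Icam1 had 2.87, 2.70, 2.95 and 2.67 FPKM in the TAC + EMPA libraries, against 5.26, 5.12 and 2.01 FPKM in the TAC libraries, so that TAC replicate 3 was the lowest of the 7 and the other TAC libraries the highest (log2 fold change -0.36, SE 0.25, limma adjusted p = 0.323). For Icam1 the log2 fold change without TAC replicate 3 was -0.71 (limma adjusted p = 0.000669), and it was -0.18 and -0.19 without TAC replicates 1 and 2. An antisense gene shares 11.7% of the exon bases of Icam1. The selectins Sele and Selp were at or below 0.635 FPKM in all libraries, did not reach the filter, and overlapped between the groups.

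The role lists differed in the size of their medians. The median log2 fold change was -0.85 for capillary genes, -0.72 for junction genes, -0.58 for transcription factors, -0.51 for the angiopoietin and Tie system, -0.34 for lymphatic genes, -0.27 for venous genes and -0.12 for the 2 tested adhesion molecules. Arterial genes, given by 10 genes outside the list of 46 of which 9 were tested, lay below the TAC group in 9 of 9 cases (46.8% of all tested genes), with a median of -0.55. Of the 9, 7 were lower at an unadjusted limma p under 0.05 (14.7%) and 1 had groups that did not overlap (10.7%). That gene, the netrin receptor Unc5b, had 3.68, 3.53, 3.25 and 3.48 FPKM in the TAC + EMPA libraries, against 6.29, 6.13 and 4.59 FPKM in the TAC libraries, without overlap (log2 fold change -0.56, SE 0.12, limma adjusted p = 0.115). The connexin Gja4 and the Notch ligand Dll4 had log2 fold changes of -0.41 and -0.67 (limma adjusted p = 0.117 and 0.117). Against TAC replicate 3 alone the arterial median was -0.02, and that of the 3 venous genes of the list was 0.62. Outside the list of 46, 3 of 5 venous genes were tested, namely Ephb4, Nrp2 and Vcan, and the groups overlapped for Vcan. All 3 genes lay below the TAC group (46.8% of all tested genes). Their median was -0.60, and -0.26 against TAC replicate 3 alone. The 5 lymphatic genes outside the list had a median of 0.26. After the correction for transcript length, the medians were -0.75 for junction genes, -0.655 for the angiopoietin and Tie system and -0.65 for transcription factors. They were -0.64 for arterial genes, -0.64 for capillary genes, -0.34 for lymphatic genes and -0.34 for venous genes of the list. The capillary list was thus no longer the lowest. Differences between these medians were not tested, since the genes of a list are not replicates.

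To ask which genes moved otherwise than the defining markers, each library was set relative to its own mean of Pecam1 and Cdh5 on the log2 scale. The 41 genes include Pecam1 and Cdh5, whose values on this scale mirror each other by construction, and nothing is read from them. On this scale 2 of the 41 genes were higher in the TAC + EMPA group, beside 45.1% of all tested genes, and 0 were lower, beside 0.121%. The 2 were Plvap (log2 fold change 0.68) and Vcam1 (log2 fold change 0.73), each at a limma adjusted p of 0.0451. The count of 2 was not stable: it was 0 with any single library other than TAC replicate 3 left out, 0 with a mean of 5 endothelial genes in place of the 2 markers, and 7 without TAC replicate 3, where a further 12 genes were lower.

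**Figure D4:**
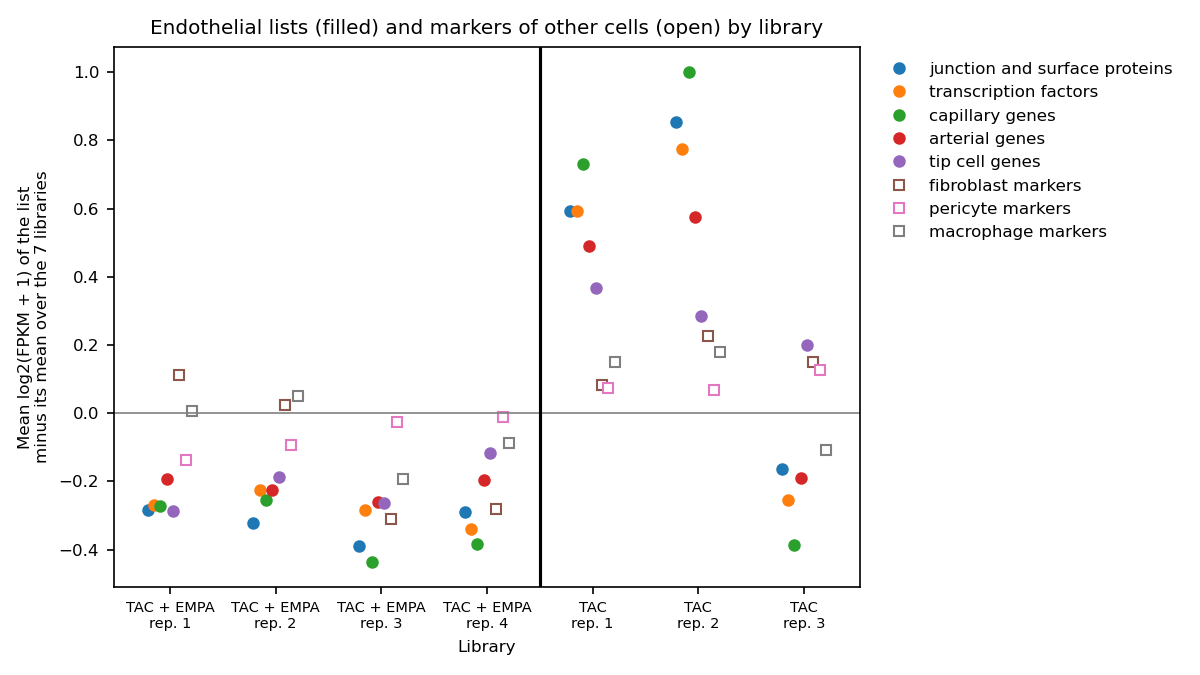
Mean log2(FPKM + 1) of each gene list minus its mean over the 7 libraries (vertical axis) in each library (horizontal axis, TAC + EMPA left of TAC), with endothelial lists filled and markers of other cell types open. The 5 endothelial lists plotted stand highest in TAC replicates 1 and 2, and in TAC replicate 3 those 5 except the tip cell genes lie below 0, as they do in the 4 TAC + EMPA libraries.

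Median fold changes of the markers of other cells were nearer to 0 than those of the junction, transcription factor and capillary lists. The exceptions were Wt1, the 1 mesothelial marker tested, and platelet markers, of which Pf4 alone reached the filter in both groups (log2 fold change -0.59 for Wt1 and -0.77 for Pf4). The median log2 fold change was -0.31 for 8 fibroblast markers, -0.26 for 7 pericyte markers, -0.22 for 7 macrophage markers and -0.04 for 5 smooth muscle markers. Groups did not overlap, with TAC + EMPA lower, in 2 of 8 fibroblast and 3 of 7 pericyte markers (10.7%). A further 1 pericyte marker was separated and higher (11.5%). Against TAC replicate 3 alone the medians were -0.29 for fibroblast, -0.26 for pericyte, 0.03 for macrophage and 0.69 for smooth muscle markers. The median of the 41 endothelial genes was then -0.08. The summed level of fibroblast markers was 509 to 671 FPKM in the TAC + EMPA libraries, against 630 to 715 FPKM in the TAC libraries, and that of pericyte markers 219 to 244 FPKM in the TAC + EMPA libraries, against 241 to 274 FPKM in the TAC libraries. The 4 platelet markers summed to 18.6 to 23.9 FPKM in the TAC + EMPA libraries, against 26.9 to 42.8 FPKM in the TAC libraries. Pf4, a chemokine of platelets, had 18.9, 23.1, 17.5 and 17.9 FPKM in the TAC + EMPA libraries, against 40.5, 38.0 and 24.5 FPKM in the TAC libraries, without overlap (limma adjusted p = 0.115). Itga2b passed the filter through the TAC libraries alone and is given as a description, with 0.270, 0.465, 0.708 and 0.512 FPKM in the TAC + EMPA libraries, against 1.86, 3.25 and 1.46 FPKM in the TAC libraries. Platelets also carry Vwf and Selp, and their part in the levels of those 2 genes was not tested.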

How the data were processed

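The authors sequenced cardiac mRNA of 7 mice and deposited FPKM per gene and library. Per the submitters' processing notes, TopHat2 2.0.13 and Cuffdiff of Cufflinks 2.2.1 were used with GRCm38; the kit marks strand, but the use of strand in the counting is not given in the sources used here, so overlapping genes can share fragments. The authors' own fold changes, p-values and term tables were not used. FPKM steps of low genes gave a relative depth of 1.19 to 2.28 for the TAC + EMPA libraries and 1.00 to 2.25 for the TAC libraries, 99.1% to 99.9% of the values read lying within 0.1 of a whole fragment; total depth is unknown, and no counting interval is given.

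Values were transformed to log2(FPKM + 1), and limma 3.58.1 (R 4.3.3) was fitted with a trended prior to the 12391 genes with a mean of at least 1 FPKM, two-sided, with Benjamini-Hochberg adjustment over these genes at 0.05. The script was tested on simulated data. P-values measure the spread between mice of 1 group. All genes and lists, the 46 included, were chosen with earlier results of these data known, although the rule itself names no value. In each role list the 3 genes of smallest p, any gene of opposite sign, Pecam1 and Cdh5 were to be given in every library; Rasip1, Robo4, Sox17 and the genes under the filter were added after their values were seen. Positions come from GENCODE (GRCm38). Alternatives were other pseudocounts (0.1, 0.5), filters, scalings, thresholds and library weights, a replicate block, each library left out, and, chosen after seeing the data, a loess correction for transcript length and a filter met in both groups. Tables and figures were made with Python 3.11.15, pandas 2.3.3 and matplotlib 3.10.9.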

Additional observations from a re-analysis of the deposited data

Results flagged for a closer look

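In 5 of the 46 endothelial genes, 1 of the 4 TAC + EMPA libraries stood apart from the other three, with a gap to its nearest neighbour above Dixon's critical value, and chance gives about 5% of genes. The ratio of gap to range was 0.925 for Robo4, 0.892 for Ly6e and 0.855 for Selp, each with its highest value in replicate 4. It was 0.863 for S1pr1, lowest in replicate 4, and 0.861 for Ly6c1, lowest in replicate 3. The sum of smooth muscle markers in the TAC + EMPA group was also highest in replicate 4, at 184 FPKM, and its part in these values was not tested.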

How the results depend on the processing

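The count of 27 endothelial genes lower at an unadjusted p under 0.05 ran from 13 to 37 over the fits that left out 1 library (13 without TAC replicate 1 or 2, 17 without TAC + EMPA replicate 3), the median log2 fold change from -0.91 to -0.43, and the counts at an adjusted p from 0 to 35 lower and from 0 to 2 higher, as did the count of higher genes at an unadjusted p (0 to 2). Over all tested genes the calls ran from 0 to 3694 higher and from 0 to 2930 lower. Library weights, which gave TAC replicate 3 a weight of 0.121 and TAC + EMPA replicate 1 a weight of 3.52, called 3310 genes higher and 2551 lower, 34 of the endothelial genes lower and 2 higher (2 also at an unadjusted p), and with no filter 2 genes were called lower. Relative to Pecam1 and Cdh5, the count of 2 higher genes was 1 at a pseudocount of 0.1, 4 with no filter, 9 with library weights and 0 with a mean of 5 genes, and 0 to 7 with 1 library left out; the count of 0 lower genes was 19 with library weights and 0 to 12 with 1 library left out. Vwf turned to 0.11 without TAC replicate 2, and Plvap to -0.084 with library weights, with a range of -0.19 (without TAC replicate 3) to 0.23 over the libraries left out. The causes were not tested.

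Replicate numbers were shared between the groups in name only (correlation of deviations 0.10, 0.08 and -0.03 for numbers 1, 2 and 3). With the replicate number as a block, which leaves TAC + EMPA replicate 4 without a partner, 20 of the endothelial genes were lower at an unadjusted p under 0.05 and 0 passed the adjusted threshold, and relative to Pecam1 and Cdh5 the count of higher genes was 0. TAC replicate 3 correlated best with TAC + EMPA replicate 2, not with its own number. With 3 TAC libraries, of which 1 lay with the other group, these data limit every comparison here.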

Other observations

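Most endothelial genes outside the list of 46 also had lower levels in the TAC + EMPA group, with 38 of 43 tested below the TAC group (46.8% of all tested genes) and 5 above it. Their median log2 fold change was -0.55, and -0.11 against TAC replicate 3 alone. That library lay closer to the TAC + EMPA average for 36 of the 43 (76.9% of all tested genes). Of 20 further general endothelial genes, 18 had lower mean log2 levels in the TAC + EMPA group, 12 were lower at an unadjusted limma p under 0.05 (14.7%) and 9 were lower with groups that did not overlap (10.7%), with a median log2 fold change of -0.61. The other 2 were Tmem100, with overlapping groups (log2 fold change 0.10), and the fatty acid transporter Cd36, which had 857, 865, 843 and 889.7 FPKM in the TAC + EMPA libraries, against 698, 711 and 827 FPKM in the TAC libraries, without overlap (log2 fold change 0.22, limma adjusted p = 0.161). The part of other cells of the heart in the level of Cd36 was not tested. The sialomucin Cd34 had 65.6, 63.3, 59.8 and 60.2 FPKM in the TAC + EMPA libraries, against 109, 111 and 83.7 FPKM in the TAC libraries, and every TAC library lay above every TAC + EMPA library (log2 fold change -0.69, limma adjusted p = 0.115). Podxl, a sialomucin of the luminal surface, had 30.5, 28.8, 32.5 and 34.1 FPKM in the TAC + EMPA libraries, against 57.8, 67.9 and 39.4 FPKM in the TAC libraries, again without overlap (log2 fold change -0.76, limma adjusted p = 0.115).

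Further lymphatic genes were mixed, with 3 of 5 above the TAC group. Reln, the secreted protein reelin that lymphatic endothelium makes, had 1.88, 1.59, 1.45 and 1.69 FPKM in the TAC + EMPA libraries, against 0.880, 1.22 and 0.990 FPKM in the TAC libraries, and every TAC + EMPA library lay above every TAC library (log2 fold change 0.39, SE 0.12, limma adjusted p = 0.116). Flt4, the receptor VEGFR-3 of lymphatic endothelium, had 3.47, 3.20, 3.38 and 3.004 FPKM in the TAC + EMPA libraries, against 5.24, 6.52 and 3.30 FPKM in the TAC libraries (log2 fold change -0.46, limma adjusted p = 0.132). Thus Reln and Flt4 stood on opposite sides of the TAC group, and the groups overlapped for Flt4.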
